A study of Rattus norvegicus with 12 samples.

Results

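The effect of a high dose of 17β-estradiol on the ventral prostate was measured in rats without testes, by comparing castrated rats given estradiol with rats that were only castrated. The comparison used 6 of the series' 12 arrays, chosen by their labels: 3 of castrated animals and 3 of castrated animals given estradiol, called combined here. All animals were adult male Wistar rats, 90 days old. Both groups had been orchiectomized through the scrotum under anaesthesia with 150 mg/kg of ketamine and 10 mg/kg of xylazine, so loss of the testes, surgery and anaesthesia were common to them. The combined group also received 25 mg/kg of 17β-estradiol in corn oil, and the gland was examined 3 days after treatment. The labels do not say whether the rats that were only castrated received corn oil, so estradiol and its injection cannot be told apart. The other 6 arrays held intact rats given vehicle (control) and intact rats given the same estradiol dose. They serve below to compare the response to estradiol with and without testes. Nothing in the labels says which rat each array came from, so the tests rest on the spread among samples and some of that spread may be technical.

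The rat ventral prostate is a secretory gland whose epithelium is maintained by testosterone from the testes. A high dose of estradiol acts on it by more than one route: through the pituitary it suppresses luteinizing hormone and with it testicular testosterone, and within the gland it can bind the oestrogen receptors, Esr1, known mainly from the stroma, and Esr2, known mainly from the epithelium. Estradiol also raises prolactin from the pituitary. In a castrated animal the testicular route is already cut, and the comparison asks what estradiol adds there.

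Levels were read from 15310 probe sets paired with 1 gene symbol, which stand for 14506 genes, as values read as log2, where each unit is a 2-fold step. The ventral prostate products Scgb2a1 and Scgb1d2, subunits of the secretoglobin prostatein, were near the top of the scale on all 6 arrays (12.47 to 13.00), and Andpro lay between 9.72 and 11.84. The probasin gene Pbsn, by contrast, had a mean of 4.63 in castrated animals and 11.20 in controls. Pairs of arrays correlated at r = 0.992 to 0.995 over probe sets, both within and between the groups, except that castrated array 2 correlated with the other 5 at only 0.985 to 0.986. Array medians over all 29214 probe sets were 5.53 to 5.56 in the castrated and 5.59 to 5.62 in the combined group. The groups did not overlap in this measure, while the median difference over the 15310 tested probe sets was 0.01.

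Gpx3 was the gene with a changed level when estradiol was given to castrated rats. It encodes a secreted, selenium-dependent glutathione peroxidase that reduces peroxides outside cells. Its level was 9.26, 9.32 and 9.63 on the 3 castrated arrays and 11.87, 11.60 and 11.19 on the 3 combined arrays. The groups were separated by more than the range of either. The means were 9.40 ± 0.20 and 11.55 ± 0.34 (SD, n = 3), a rise of 2.15 ± 0.18 on the log2 scale (SE), or 4.43-fold with a 95% interval of 3.32- to 5.91-fold (adjusted p = 0.0228, limma). It was 1 of 15310 probe sets to pass an adjusted p of 0.05, which is 0.00653%, and it is also the count of genes that passed with at least a 2-fold difference. The rank of Gpx3 by p was 1 under all 14 alternative treatments of the data, with differences of 1.99 to 2.33. Its adjusted p did not pass under 6 of them. The first was the fit with the replicate number as a block, and in the others it was 0.403 with the spread estimated over all 12 arrays and 0.169, 0.146, 0.116 and 0.400 without castrated array 1, castrated array 2, combined array 1 or combined array 2.

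The Gpx3 promoter is shown because this was the gene that passed. RefSeq's rat assembly GRCr8 places the 250 bases before its annotated start at chr10:39529085-39529334, on the plus strand, with a GC content of 55.2%.
Gpx3 promoter: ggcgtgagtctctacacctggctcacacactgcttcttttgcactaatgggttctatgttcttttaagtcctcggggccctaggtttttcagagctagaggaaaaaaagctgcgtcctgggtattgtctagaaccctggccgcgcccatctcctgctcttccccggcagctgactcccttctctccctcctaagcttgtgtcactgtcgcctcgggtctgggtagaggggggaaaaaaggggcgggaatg
No letters are in capitals because none of the searched motifs was found in this window on either strand. The motifs were the palindromic oestrogen response element GGTCANNNTGACC, which was in 8 of 33469 rat promoters of the same length (0.0239%), the shorter sequence GGTCA that makes up each of its arms and so lies inside it and was in 35.4%, and the Stat5 element TTCNNNGAA, which was in 7.67%. This describes the letters of 1 short window and says nothing of where a receptor binds.

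**Figure D1:**
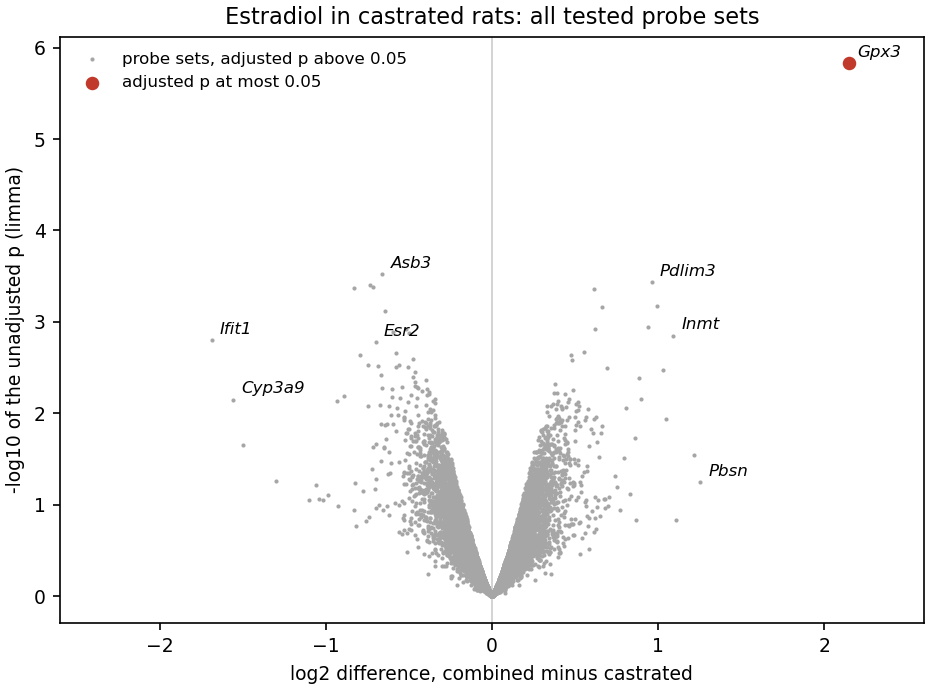
Each point is 1 of 15310 probe sets, with the log2 difference of combined minus castrated on the horizontal axis and the -log10 of limma's unadjusted p on the vertical axis. Gpx3 (red) lies apart from all other points, and the probe set with the next smallest p has an adjusted p of 0.846.

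The rest of the distribution was narrow. The second smallest p was 0.000303, with an adjusted p of 0.846, so no fall passed. At an unadjusted p under 0.05 there were 741 probe sets (4.84%), 323 higher and 418 lower in the combined group. That split depended on the scaling. With quantile normalization it was 266 higher and 448 lower, and with array medians made equal 143 higher and 865 lower. Those medians were taken over all 29214 probe sets, and the median of the tested differences was then -0.05. The 3 arrays of each group did not overlap in 888 probe sets that were higher (5.8%) and 1012 that were lower (6.61%). The 95% interval of the difference lay within 2-fold in either direction for 15035 probe sets (98.2%) and within 1.5-fold for 12689 (82.9%). The intervals bound the measured difference and not always a response, since no filter on level was used and dim probe sets are included. Differences inside them could not be told from the spread of 3 arrays a group. They rest on the spread of these 6 arrays. For Gpx3 the standard error was 0.18 here and 0.34 with all 12 arrays in the fit.

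The other glutathione peroxidases did not pass. Gpx1, the cytosolic enzyme, was at 10.60, 10.29 and 10.63 in castrated and 10.52, 10.63 and 10.50 in combined animals, so the groups overlapped. The log2 differences were 0.05 for Gpx1, -0.20 for Gpx2, 0.07 for Gpx4, 0.07 for Gpx6, 0.13 for Gpx7 and 0.11 for Gpx8, and each 95% interval lay within 1.5-fold. Gpx4 is the enzyme that reduces lipid peroxides in membranes. Gsr, which regenerates glutathione, differed by -0.01, catalase (Cat) by 0.22 and the selenium carrier Selenop by -0.28. Of 49 measured antioxidant and glutathione genes, Gpx3 rose and none of the others passed in either direction, with a median difference of 0.04 against 0.01 over all genes.

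The receptors through which estradiol and prolactin act were next. Esr2 was at 6.89, 7.0 and 7.27 in castrated and 6.30, 6.61 and 6.14 in combined animals, and the groups did not overlap. Its difference was -0.70 (95% interval -1.05 to -0.35), with an unadjusted p of 0.00165 that missed the threshold after adjustment (0.846). Esr2 had a mean of 8.49 in controls and 6.76 in intact animals given estradiol, so the castrated level of 7.05 already lay below that of controls. Esr1 was at 4.45 to 4.81 on the 6 arrays, with a difference of 0.11 and an interval of -0.17 to 0.39. The other Esr1 probe set had a mean of 3.67 in both groups. The progesterone receptor gene Pgr, a classical oestrogen target, was at 3.11 to 3.73 and differed by 0.10. Esr1 and Pgr lay below the array medians (5.53 to 5.62), so their small differences cannot show that a response was absent. The prolactin receptor gene Prlr was at 9.63, 9.39 and 9.39 against 8.95, 9.29 and 9.24, a difference of -0.31 that also missed the threshold. Of 26 measured steroid receptors and steroid enzymes, none passed, and Esr2 had the smallest p.

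Of 22 measured genes of prolactin and Stat5 signalling none passed, with a median of -0.02. Cish, a feedback inhibitor induced by Stat5, was at 5.40, 5.30 and 5.68 in castrated and 5.95, 5.67 and 5.74 in combined animals (difference 0.33, overlapping). Socs2, a related inhibitor, differed by 0.15, and the kinase gene Jak1 had the smallest p of the list, with a difference of -0.27.

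Of 39 measured genes known to respond to oestrogen, 31 were higher and 8 lower in the combined group, with a median of 0.12 against 0.01 over all genes. Over all 14506 genes, 7538 were higher and 6968 lower. An unadjusted p under 0.05 (limma) was reached by 7 higher and 0 lower members, against 293 higher and 401 lower over all genes. All members of this list, Gpx3 included, were chosen with earlier results of these data known. Neither these counts nor any member therefore carries independent weight. Gpx3 was the member that passed. The others with an unadjusted p under 0.05 were all higher: Agr2, a disulfide isomerase of secretory epithelium (0.46), the cyclin D1 gene Ccnd1 (0.46), the water channel gene Aqp5 (0.55), Vegfa (0.32), the calcium-binding protein gene S100g (0.28) and Myc (0.24). Agr2 was at 6.39, 6.32 and 6.34 against 6.61, 7.06 and 6.78, and Myc at 7.93, 7.97 and 8.07 against 8.21, 8.27 and 8.23. In both the groups did not overlap, while in Ccnd1 combined array 3 (8.49) lay below castrated array 3 (8.55). The list's median was 0.07 with array medians made equal, where the median over all genes was -0.05. It was 0.07 without castrated array 2, where 23 of 39 members were higher and the median over all genes was -0.01.

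**Figure D2:**
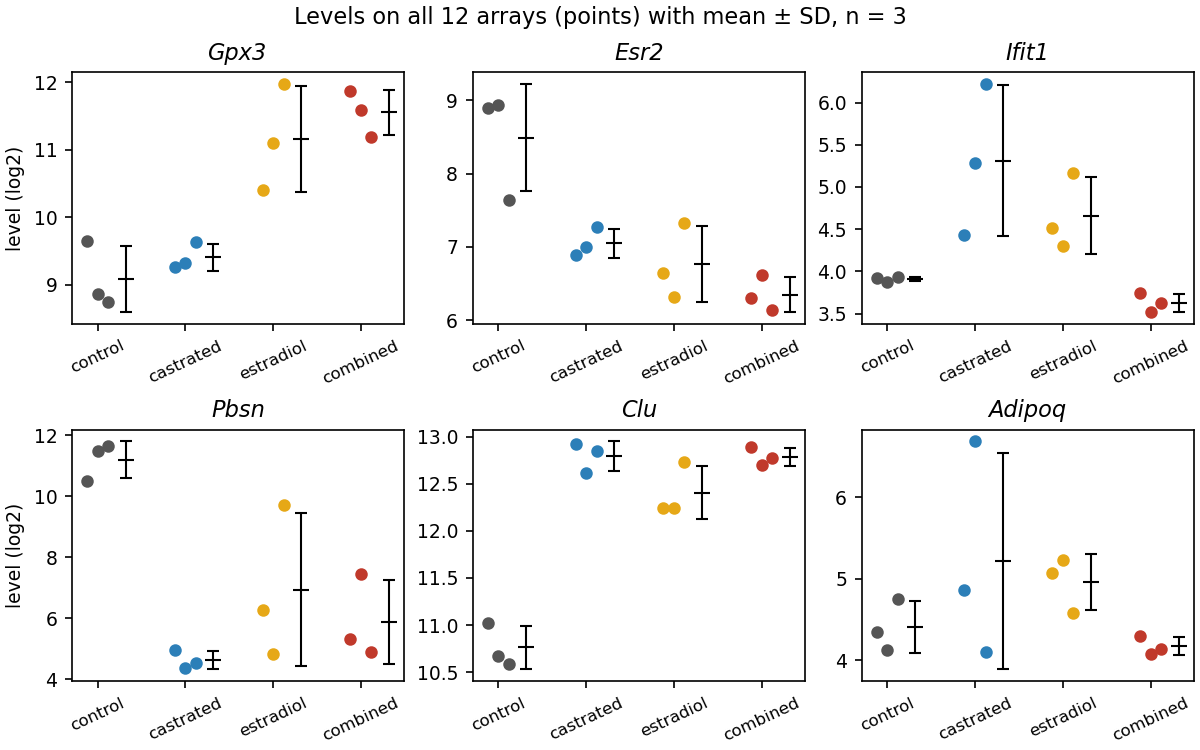
Levels (log2) of Gpx3, Esr2, Ifit1, Pbsn, Clu and Adipoq on each of the 12 arrays, by group, with the mean and SD of the 3 arrays beside the points. In Gpx3 both groups given estradiol lie above both groups without it, in Clu the 2 castrated groups overlap, and Adipoq has 1 high castrated array (6.69).

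Androgen-dependent genes did not pass in either direction. Pbsn was at 4.96, 4.37 and 4.54 in castrated and 5.31, 7.45 and 4.88 in combined animals. The groups overlapped, and combined array 2 alone was high. The difference of 1.25 had a 95% interval of -0.04 to 2.55, and was 0.47 without combined array 2. Clu, which encodes clusterin and is a classical marker of prostate regression, was at 12.92, 12.62 and 12.85 against 12.89, 12.70 and 12.78, a difference of -0.01 (interval -0.28 to 0.26). Its mean in controls was 10.76. Fkbp5, a cochaperone induced by androgens and glucocorticoids, was at 8.81, 9.13 and 8.56 against 8.72, 8.56 and 8.66, against a control mean of 10.69. Of 27 androgen targets, 25 ventral prostate secretory products and 32 regression genes none passed, with medians of -0.04, 0.09 and 0.06.

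Apoptosis regulators were examined because the series compares treatments by their effect on epithelial cell death. Of 49 measured, none passed and the median was -0.01. All 49 intervals lay within 2-fold. Bcl2, which opposes apoptosis, was at 8.30, 8.95 and 8.74 against 8.81, 8.78 and 9.40 (difference 0.33, overlapping). Birc2, an inhibitor of apoptosis, had the smallest p of the list at a difference of -0.29. Fas, a death receptor, differed by -0.28, Xiap, another inhibitor, by -0.45, and Bax, which promotes apoptosis, by 0.08. For Xiap the other probe set differed by -0.09, so its probe sets did not give the same size.

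Besides Gpx3, 11 genes were named in the upward direction by the smallest p among genes whose arrays did not overlap. All missed the threshold, with an adjusted p of 0.846. Pdlim3, an actinin-binding protein of muscle, was at 6.25, 5.69 and 6.10 in castrated and 7.15, 7.02 and 6.76 in combined animals (difference 0.96). Inmt, a methyltransferase, was at 7.74, 8.69 and 8.28 against 9.24, 9.12 and 9.62 (1.09). Both therefore had every combined array above every castrated one, with Inmt's castrated arrays spread over nearly 1 unit. Isyna1, which makes inositol phosphate from glucose phosphate, differed by 1.03, the aldehyde oxidase gene Aox3 by 0.99 and the vesicular nucleotide transporter gene Slc17a9 by 0.94. The matricellular gene Ccn1 differed by 0.69, Wdr46 by 0.66, the uroplakin gene Upk1a by 0.62, Aqp5 by 0.55, Odc1, the first enzyme of polyamine synthesis, by 0.48 and Fam3b by 0.48. Isyna1, Aox3, Slc17a9 and Odc1 had lower means in castrated animals than in controls (log2 differences of -1.36, -1.28, -1.04 and -0.81, which share the castrated arrays with the differences above). Inmt lay the other way, with a castrated mean above that of controls (1.91), and the values of the other 6 lay between -0.65 for Aqp5 and 0.06 for Ccn1.

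In the downward direction 12 genes were named by the same rule, and all missed the threshold. Ifit1, an interferon-induced gene, had the largest difference, at 4.44, 5.28 and 6.22 in castrated and 3.74, 3.52 and 3.62 in combined animals. Its difference was -1.69 with a 95% interval of -2.53 to -0.84, and the castrated arrays were spread widely while the combined arrays lay close together. These combined levels and the control mean of Ifit1 (3.91) were low, below the array medians of the 6 arrays (5.53 to 5.62). Whether the floor of the scale limited the spread or the difference was not tested. Asb3, which carries a SOCS box, had the smallest p of these 12 genes, at 9.17, 9.19 and 9.10 against 8.39, 8.67 and 8.43 (-0.66). The ubiquitin ligase gene Hectd2 differed by -0.83, Tektip1 by -0.79, the Fc receptor-like gene Fcrl2 by -0.73, the DNA end-joining gene Xrcc4 by -0.71 and Esr2 by -0.70. Scnn1b, a subunit of the epithelial sodium channel, differed by -0.64, Dipk1a by -0.60, the ADP receptor gene P2ry12 by -0.58, Pigr, which carries immunoglobulin A across epithelium, by -0.52, and the proton pump subunit gene Atp6v1e1 by -0.50.

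**Figure D3:**
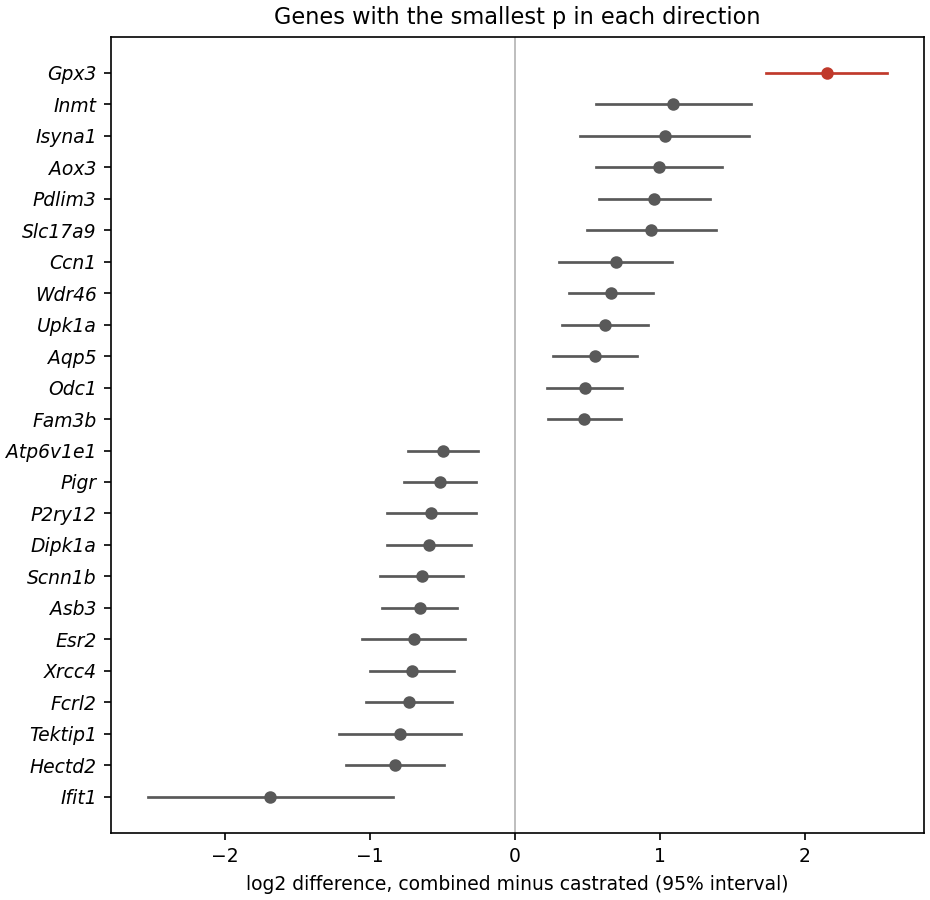
Log2 differences (combined minus castrated, points) with 95% intervals (lines) of the 12 genes named in each direction, ordered by size. Gpx3 (red) is the gene that passed, and its interval starts at 1.73, above the upper end of all other intervals drawn; the intervals cover single genes and are not adjusted for the number tested.

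By mean alone, 15 probe sets differed at least 2-fold, 7 higher and 8 lower in the combined group, and Gpx3 among them passed. Those outside the naming rule were picked after their values were seen. The higher ones besides Gpx3, Inmt, Isyna1 and Pbsn were Oprpn (1.22), Csap1 (1.11) and Sdr16c5 (1.05). The lower ones besides Ifit1 were the cytochrome P450 gene Cyp3a9 (-1.56), the carbonic anhydrase gene Car3 (-1.50), Mrgprb13 (-1.30), Mx1 (-1.10), Or4c11 (-1.06), Adipoq (-1.04) and Cdo1 (-1.02). Adipoq, the fat cell hormone adiponectin, was at 4.86, 6.69 and 4.11 in castrated and 4.30, 4.08 and 4.14 in combined animals. Castrated array 2 was also the highest of the 6 for Car3 (8.93) and Cdo1 (7.46), both abundant in fat, and for the skeletal muscle genes Myh4 (5.80) and Myl1 (5.62).

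Over 27 markers of adipocytes, skeletal muscle and blood, the mean level was 5.81 on castrated array 2, 5.27 and 5.22 on castrated arrays 1 and 3, and 5.32 to 5.41 in the combined group. None of the 27 passed. Their median difference was -0.08, and 0.08 without castrated array 2, where 20 were higher. In bulk tissue, fewer cells of a type and less RNA per cell cannot be told apart. The part of fat or muscle RNA in the differences of Adipoq, Car3 and Cdo1 was not tested. Without castrated array 2 Gpx3 differed by 2.11.

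Immune genes came from the same glands. Of 39 macrophage and dendritic cell genes, 30 were lower in the combined group, none passed, and the median was -0.19. Ctss, a lysosomal protease of antigen-presenting cells, was at 7.84, 8.34 and 8.29 against 7.84, 7.22 and 7.62 (-0.60), and Cybb, a subunit of the phagocyte oxidase, differed by -0.50. The mean level of the list was 7.31, 7.16 and 7.76 on the castrated arrays and 7.36, 6.995 and 7.40 on the combined arrays, which overlap. Without castrated array 3 the list's median was 0.00, with 20 lower and 19 higher.

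Interferon and antigen presentation genes followed the same array. Of 45 measured, 31 were lower in the combined group, none passed, and the median was -0.18. The list's mean level was 6.60, 6.63 and 7.41 on the castrated arrays and 6.85, 6.32 and 6.89 on the combined arrays, so castrated array 3 was the high one. Mx1, an interferon-induced antiviral gene, was at 6.15, 6.63 and 8.44 against 6.57, 5.12 and 6.23, and Gbp2, a guanylate-binding protein, differed by -0.58. Without castrated array 3 the median was 0.07 and 25 members were higher, and without combined array 2 it was 0.01. Ifit1 differed by -1.23 without castrated array 3.

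Among metabolic genes, 26 of 34 members of the cholesterol and fatty acid synthesis list were lower, none passed, and the median was -0.17. It stayed between -0.27 and -0.08 with each array left out. Acss2, which makes acetyl-CoA from acetate, was at 7.10, 6.73 and 6.999 against 6.44, 6.60 and 6.43 (-0.45), without overlap. Acly, which makes cytosolic acetyl-CoA from citrate, differed by -0.28, and Nsdhl, of cholesterol synthesis, by -0.30. Of 40 endoplasmic reticulum folding genes none passed, with a median of 0.05. With array medians made equal it was 0.00, where the median over all genes was -0.05. Herpud1, a stress-induced gene of that compartment, was at 8.51, 8.04 and 8.65 against 8.91, 8.99 and 8.63 (0.45), below its control mean of 9.82. Of 20 polyamine genes, 42 cell cycle genes and 42 genes of the respiratory chain and citrate cycle none passed, with medians of 0.07, -0.07 and -0.03.

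Cell type lists gave small medians. Of 23 squamous and basal epithelial genes, 19 were higher with a median of 0.08, which was 0.02 without castrated array 2. Krt4 had the smallest p of the list, with a difference of 0.30, and the basal keratin gene Krt14 differed by 0.12. Krt15, another basal keratin and the highest member of the list, was at 9.18, 9.02 and 10.41 against 10.41, 10.11 and 10.31 (0.74). Its castrated array 3 reached the combined range, so the groups overlapped. Of 26 luminal epithelial genes the median was -0.05, with Cldn8, which had the smallest p, at -0.34, Krt8 at -0.22 and Krt18 at -0.10. Of 22 smooth muscle genes, 16 were higher with a median of 0.12, and of 37 fibroblast and matrix genes the median was 0.06, which was -0.08 without castrated array 2, -0.04 without combined array 3 and 0.20 without combined array 2. Col14a1 had the smallest p of the fibroblast and matrix list, with a difference of -0.66. The smooth muscle median was 0.03 without castrated array 2 and 0.00 without combined array 3. Castrated array 2 had the lowest mean over the smooth muscle list of the 6 arrays (7.70). Glucocorticoid targets and metallothioneins had a median of 0.12 over 26 genes, with 20 higher and 6 lower. Per1, with the smallest p, was at 0.41. The members ran from -0.49 to 0.45, the value of the metallothionein gene Mt2A. None of the members of these lists passed. The medians of 21 of the 31 lists changed sign under at least 1 of 8 settings (equal array medians, quantile normalization, and each of the 6 arrays left out).

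**Figure D4:**
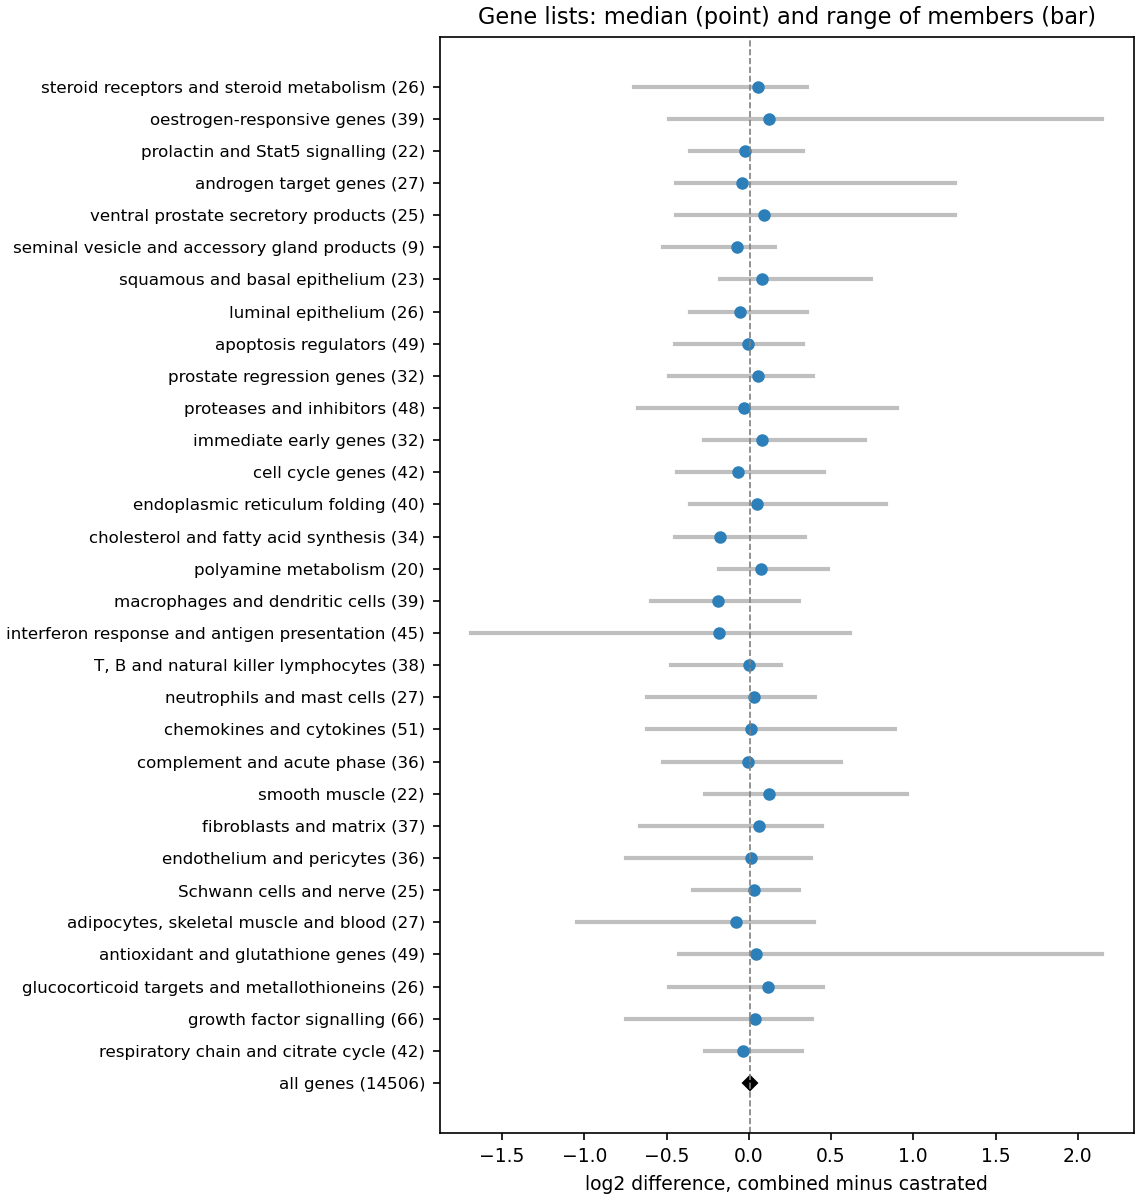
For each of 31 gene lists (number of measured genes in brackets), the point is the median log2 difference of combined minus castrated and the grey bar the range of its members. The dashed line and the black diamond mark the median over all 14506 genes (0.01), and the list medians lie between -0.19 and 0.12.

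The same dose was then compared between rats with and without testes. The labels list anaesthesia only for the castrated and combined groups, so loss of the testes, surgery and anaesthesia cannot be told apart here. Controls received vehicle, while the labels do not say whether rats that were only castrated did. In intact animals, 660 probe sets differed at least 2-fold by mean between the estradiol and control groups, against 15 in castrated animals. Estradiol arrays 1 and 2 stand apart, with an SD over all probe sets of 1.93 and 2.01 against 2.24 to 2.30 on the other 10 arrays. Estradiol array 3 alone gave 445 against the control mean. That count is not like the 660 or the 15, since 1 array varies more than a mean of 3. The standard deviation of the differences over probe sets was 0.49 in intact and 0.18 in castrated animals. These 2 differences share no arrays. Their correlation over 15310 probe sets was r = 0.10 and rho = 0.14, a description across genes, which are not independent. Gpx3 was at 9.64, 8.87 and 8.73 in controls and 10.40, 11.09 and 11.98 in intact animals given estradiol, a difference of 2.08 ± 0.34 (SE; adjusted p = 0.00313, limma over all 12 arrays), with no overlap. Castrated and control animals had means of 9.40 and 9.08. The estradiol effect on Gpx3 differed between castrated and intact animals by 0.07 ± 0.48 (SE; adjusted p = 0.953, limma), an error too wide to show that the effects were alike. Without estradiol arrays 1 and 2 that difference was -0.75, with an adjusted p of 0.418.

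**Figure D5:**
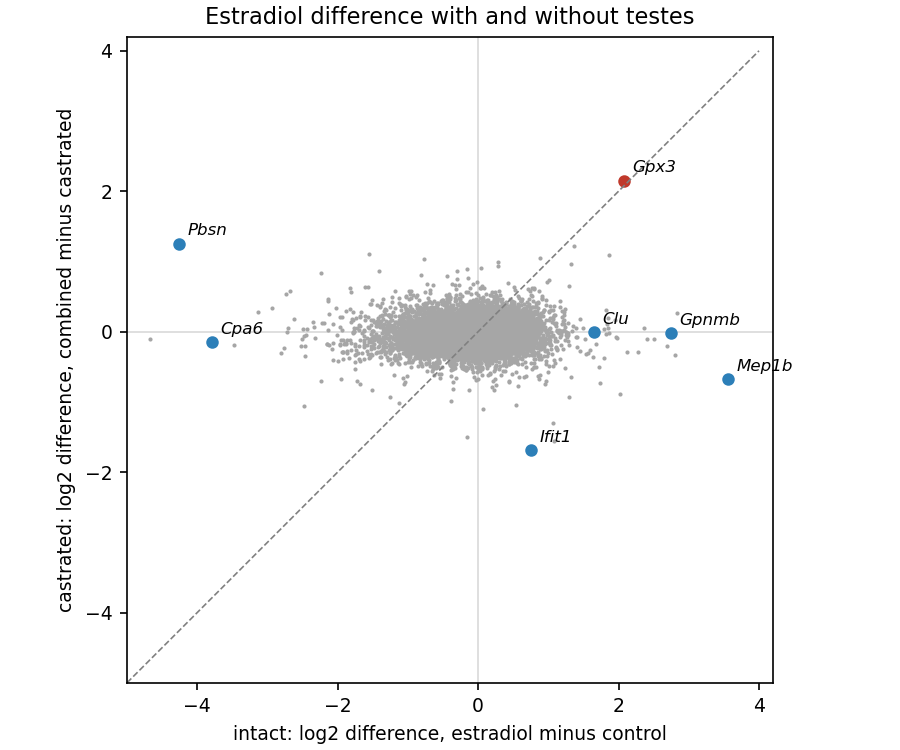
Log2 difference made by estradiol in intact animals (horizontal axis, estradiol minus control) against that in castrated animals (vertical axis, combined minus castrated), 1 point per probe set, with the dashed line where both are equal. The cloud is wide along the horizontal axis and narrow along the vertical one, and Gpx3 (red) lies near the dashed line at 2.08 and 2.15.

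A test of the difference between the estradiol effects (limma's interaction over all 12 arrays) called 163 probe sets (1.06%), with 117 higher and 46 lower in castrated than in intact animals. The split turned round without estradiol arrays 1 and 2, where 158 were higher and 240 lower. None of the 163 was also called within castrated animals. In 161 of them the absolute difference was smaller in castrated animals, with a median of 0.16 against 1.52 in intact animals, which the selection itself favours. Mep1b, a subunit of the metalloprotease meprin, was at 5.63, 5.75 and 5.46 in controls and 8.59, 9.51 and 9.41 in intact animals given estradiol, against 10.16, 10.51 and 9.76 in castrated and 9.42, 9.71 and 9.27 in combined animals. Its effects differed by -4.23, the largest size among the named genes that this test called. Cpa6, a carboxypeptidase, was at 8.76, 9.98 and 9.72 in controls and 5.42 to 5.96 in intact animals given estradiol, against 5.53 to 5.83 in castrated and 5.26 to 5.77 in combined animals. In Cpa6 the mean in castrated animals without estradiol (5.67) was already near that of intact animals given estradiol (5.70). Both were near the medians of the castrated and combined arrays (5.53 to 5.62). Whether this low level limited a further fall was not tested. In Mep1b the castrated arrays lay above those of intact animals given estradiol without overlap, with means of 10.14 and 9.17. In Clu the effects differed by -1.66 (adjusted p = 0.00664, limma). Its means were 10.76 in controls, 12.41 in intact animals given estradiol, 12.80 in castrated and 12.79 in combined animals. The castrated and combined levels lay near the top of the scale. Whether that limited a further rise was not tested. The number of probe sets called depended on the arrays, from 63 without control array 2 to 1745 without estradiol array 3.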

How the data were processed

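Per the submitters' processing notes, the authors processed Affymetrix arrays of ventral prostate RNA (500 ng of RNA, 30 mg of tissue) with Affymetrix Expression Console. The deposited values were read as log2 levels from their range. The normalization, the log base and the build are not stated in the sources used here. Of 29214 probe sets, 15310 had 1 gene symbol in the platform annotation, 323 several and 13581 none, and the last 2 kinds were left out.

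Combined was compared with castrated using limma 3.58.1 under R 4.3.3 (lmFit, then eBayes, on 6 arrays, no filter, 4 residual and 4.48 prior degrees of freedom), 2-sided, with Benjamini-Hochberg adjustment over all 15310 probe sets and a threshold of 0.05. "Rose" is used of what passed. The difference between estradiol effects used all 12 arrays. The median standard error of a difference was 0.13, limited by 3 arrays a group.

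Named genes are the 12 largest changes per direction that passed without overlap, filled with the smallest p among non-overlapping genes, the member with the smallest p of each list described (or up to 4 that passed), and a panel of 14 genes, 11 of them analysed here. For some lists the member with the smallest p is not printed. Other genes, such as Mep1b, Gpx1, Adipoq, Mx1, Krt8 and Krt15, were picked after their values were seen. The members, the 31 lists and the panel were chosen with earlier results of these data known. For lists, 1 probe set per gene was used, the one with the highest mean over the 6 arrays. The script was tested on simulated data. Alternatives were a replicate block, all 12 arrays, centred medians, quantile normalization, array weights, a variance trend, a filter on dim probe sets, 1 probe set per gene and leaving out each array. Figures used matplotlib 3.10.9.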

Additional observations from a re-analysis of the deposited data

Results flagged for a closer look

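The effect of estradiol differed between castrated and intact animals in 163 probe sets, by limma's interaction over all 12 arrays (adjusted p at most 0.05). Castration came with surgery and anaesthesia, and their parts cannot be told apart. Among the genes named here, the effect in castrated minus that in intact animals was lower in Mep1b (-4.23), Sulf1, a heparan sulfate sulfatase (-2.91), Gpnmb, a glycoprotein of macrophages (-2.77), Fcrl2 (-2.47), Ifit1 (-2.44), Clu (-1.66), the myeloid transcription factor gene Spi1 (-1.29), Jun (-1.22) and Xrcc4 (-1.16). It was higher in Cpa6 (3.64), the fatty acid elongase gene Elovl6 (3.27), Derl3, of protein degradation from the endoplasmic reticulum (3.08), the fatty acid desaturase gene Scd (2.13), Herpud1 (1.95), the spermidine synthase gene Srm (1.93), Fhl2 (1.61), Fkbp11 (1.60), Ccnd1 (1.45) and Fkbp5 (1.43). In Mep1b, Sulf1, Fcrl2, Ifit1, Spi1, Jun and Xrcc4 the castrated arrays lay above both the combined and the control arrays without overlap, while the level of Gpnmb was nearly the same in castrated (9.24) and combined animals (9.22).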

How the results depend on the processing

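Gpx3 was the gene called in castrated animals, also counted at 2-fold or more, and this count was 0 with the replicate block (limma, 856 probe sets at an unadjusted p under 0.05) and 0 with all 12 arrays in the fit (157), and 0 to 1 with each array left out; the cause was not tested, though the fits without an array have fewer samples. With the replicate block the adjusted p of Gpx3 was 0.153, and no other call of a named gene within castrated animals changed. Nothing in the labels pairs same-numbered arrays: their deviations from the group means correlated at 0.076, 0.086 and 0.133, and 5 of 6 arrays correlated best with their own number, a hint from the data and not the design. The count of differing estradiol effects was 972 with array weights, 398 without estradiol arrays 1 and 2, 152 with the replicate block, and 63 to 1745 with each array left out; the cause was not tested. With each array left out, the differences of genes near 0 changed sign: Clu -0.099 to 0.053, Pgr -0.012 to 0.30 and Socs2 -0.0098 to 0.37. The other genes of the 12 named in each direction and of the panel kept their direction under every alternative run. Among the other genes printed, sign changes under at least 1 alternative were found in Cat (-0.07 to 0.43), Gpnmb (-0.17 to 0.17), Gpx1 (-0.06 to 0.11), Gpx4 (-0.08 to 0.22), Gpx6 (-0.10 to 0.17), Gpx8 (-0.09 to 0.24), Gsr (-0.07 to 0.07), Krt14 (-0.18 to 0.32), Myl1 (-0.86 to 0.01) and Scgb2a1 (-0.02 to 0.11). Centring moved the median of all differences to -0.05, from 0.01. With 3 arrays a group the median standard error was 0.13, so small differences were not detectable.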
